A study of Mus musculus with 30 samples.

Results

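CP-868388, a piperidine agonist of the nuclear receptor PPAR-alpha known here by its code name, was compared with vehicle after 5 days of dosing in mouse liver. The comparison holds 8 of the 30 arrays of the series, namely 4 livers given CP-868388 and 4 given vehicle, taken from the array titles. All mice were male C57Bl/6, with no genetic change named in the labels. The treated mice had 1 mg/kg per day for 5 days, and the controls had water over the same time. The series also holds CP-868388 and vehicle at 24 h, and the related agonists CP-775146 and CP-865520 at the same dose, in 8 groups in all. Total RNA of each liver went onto 1 array, and arrays of a group were treated as different mice, since the design text gives the number of mice per group. No ages were given. Gene names came only with the control probe sets, so neither liver markers nor the target genes of the receptor could be looked up, and single features are given by their probe set names.

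PPAR-alpha is a transcription factor that fatty acids switch on, and it pairs with the retinoid X receptor on DNA. In liver it raises the genes of fatty acid uptake, peroxisomal and mitochondrial oxidation and ketone production, and in rodents its agonists enlarge the liver and multiply its peroxisomes. It also lowers many genes, among them genes of the acute phase response.

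The livers given CP-868388 differed from vehicle over a large share of the array. Of 7963 probe sets tested, 3008 (37.8%) passed an adjusted p of 0.05 in limma with Benjamini-Hochberg adjustment, a result termed called from here on. Of these, 1114 (14% of those tested) were higher under the compound and 1894 (23.8%) were lower. At least 2-fold changes were fewer, with 211 probe sets (2.65%) higher and 186 (2.34%) lower. Their balance depended on the scale: adding 1 in place of 50 before the logarithm gave 305 higher and 361 lower, and centring each array on its median gave 319 and 135. Values are intensities on a linear scale with a lowest value of 50, called the floor, and all changes are differences of log2(intensity + 50), a scale that makes the changes of dim probe sets look smaller than they are. The 4 compound and 4 vehicle arrays did not overlap at all for 2370 probe sets (29.8%), of which 999 (12.5%) were higher and 1371 (17.2%) lower under the compound.

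Most called changes were small. The median called rise was 0.60 on the log2 scale and the median called fall was -0.50, beside a median standard error of 0.12 over all tested probe sets. Among the 223 called probe sets that changed by less than 0.25, 187 were lower and 36 higher. Lower calls made up most of the next classes too, with 778 of 1147 between 0.25 and 0.5 and 743 of 1241 between 0.5 and 1. Above that, on this scale, the balance turned: 182 of 346 called changes between 1 and 2 were rises, as were 29 of 51 changes of 2 or more. On the log2(intensity + 50) scale the excess of lower calls lay in changes under 1, and with 1 added in place of 50 falls were also the majority among changes of at least 2-fold. Separation of the groups followed size, since 30.9% of the called changes under 0.25 had no overlap between the groups, against 82.9% of those between 0.5 and 1 and 100% of those of 2 or more.

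The balance of directions depended on how the arrays were scaled. With the deposited values, 37.0% of calls were higher. Centring each array on its probe sets above the floor gave 1168 higher and 1712 lower calls (40.6% higher), and quantile normalization gave 1322 and 1358 (49.3% higher). Centring on the median of all tested probe sets turned the balance, with 2331 higher and 1059 lower calls (68.8% higher). This turn was largest among dim probe sets. Of 911 at the floor on all vehicle arrays at 24 h, 471 were then called higher and 3 lower, against 48 and 85 as deposited. Median centring shifted the change of every probe set upward by the same amount, so values at the floor in both groups moved too. The median change of these 911 went from -0.01 as deposited to 0.14. In the classes of 24 h vehicle intensity from 100 up, 44.7 to 59.7% of the calls after median centring were higher. The median change of all tested probe sets was -0.07 as deposited and 0.08 after median centring. The middle 50% of called rises lay between 0.43 and 0.89 and that of called falls between -0.70 and -0.36.

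The largest rise among probe sets above the floor throughout was that of 97316_AT. Its intensities were 4944, 5187, 5466 and 4478 in the livers given CP-868388 and 158, 130, 160 and 226 in those given vehicle. Every compound array was far above every vehicle array, 29.8-fold on the means. On the log2 scale the change was 4.55 ± 0.11 (SE, n = 4 and 4, limma adjusted p = 1.18e-20).

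The largest fall of that kind was that of 99083_AT. It read 513, 577, 445 and 654 under the compound and 5663, 4801, 5108 and 5828 under vehicle. The groups were again far apart, with the compound mean 9.78-fold lower, and the log2 change was -3.18 ± 0.18 (SE, n = 4 and 4, limma adjusted p = 4.66e-13).

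**Figure D1:**
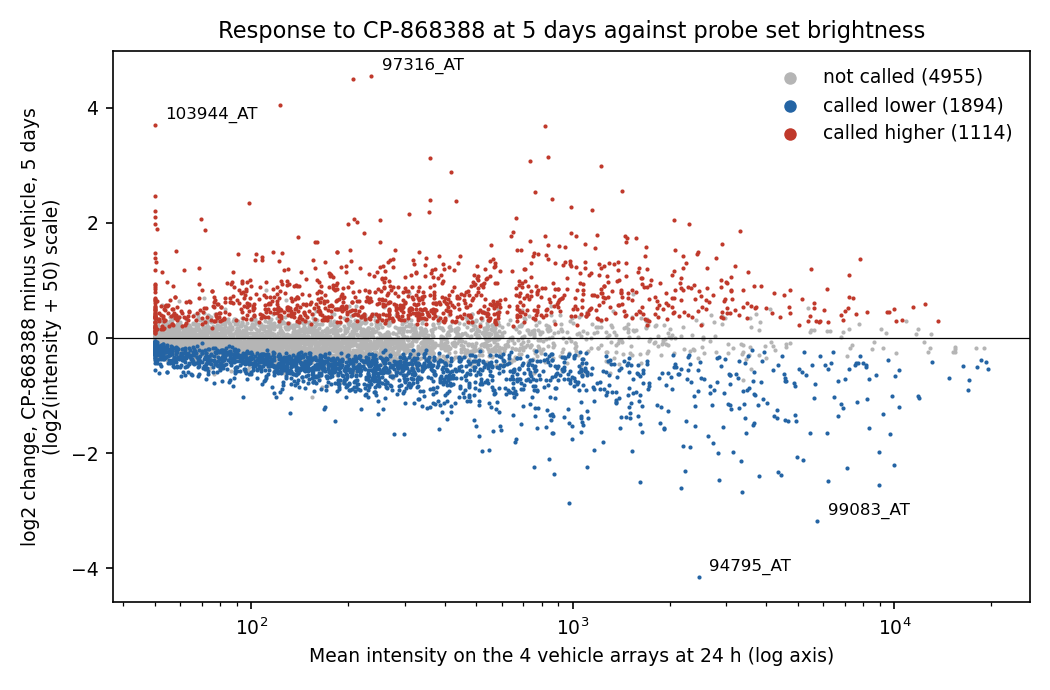
Each point is 1 tested probe set, with its mean intensity on the 4 vehicle arrays at 24 h (log axis) against its log2 change under CP-868388 at 5 days; called rises are red, called falls blue and the rest grey. Large changes in both directions, such as 97316_AT (4.55) and 99083_AT (-3.18), stand far outside the band of small changes around 0.

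The share of probe sets called rose with brightness. Brightness was taken from the 4 vehicle arrays at 24 h, which are untreated and outside the comparison. Of the 911 tested probe sets at the floor on all of these, 14.6% were called, against 38.4% of the 1756 between 100 and 200, 62.6% of the 613 between 500 and 1000 and 76.8% of the 233 between 2000 and 5000. Changes of at least 2-fold rose likewise from 0.878% at the floor to 25.8% between 2000 and 5000. Part of that rise is built in, since the log2(intensity + 50) scale shrinks dim changes and probe sets near the floor have little room to fall. At least 2-fold falls numbered 0 at the floor and 1 between 50 and 100. In the brightest class, above 5000, 73.6% of 121 probe sets were called, 3 of them at least 2-fold higher and 23 at least 2-fold lower.

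The direction of the calls by brightness depended on the arrays that set the classes. With the 24 h vehicle arrays, the share of calls that were higher was 29.2% between 50 and 100, 31.0% between 100 and 200, 50.8% between 1000 and 2000, 44.7% between 2000 and 5000 and 34.8% above 5000. The classes were first made from all 22 arrays outside the comparison, and there the share ran from 15.9% between 50 and 100 to 65.6% between 2000 and 5000 and 61.3% above 5000. Of those 22 arrays 18 came from agonist-treated livers, so a probe set that agonists raise was itself classed as brighter. For that reason the reference was changed after this result had been seen. A midpoint of vehicle and CP-868388 arrays at 24 h, tried last, gave 20.3% between 50 and 100, 62.1% between 1000 and 2000, 56.7% between 2000 and 5000 and 50% above 5000. A lower share of rises among dim than among moderately bright probe sets was present with all 3 references on the deposited scale. A majority of rises among the brightest was not, and under quantile normalization with the 24 h vehicle reference the dim classes reversed, to 68.2% higher between 50 and 100.

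**Figure D2:**
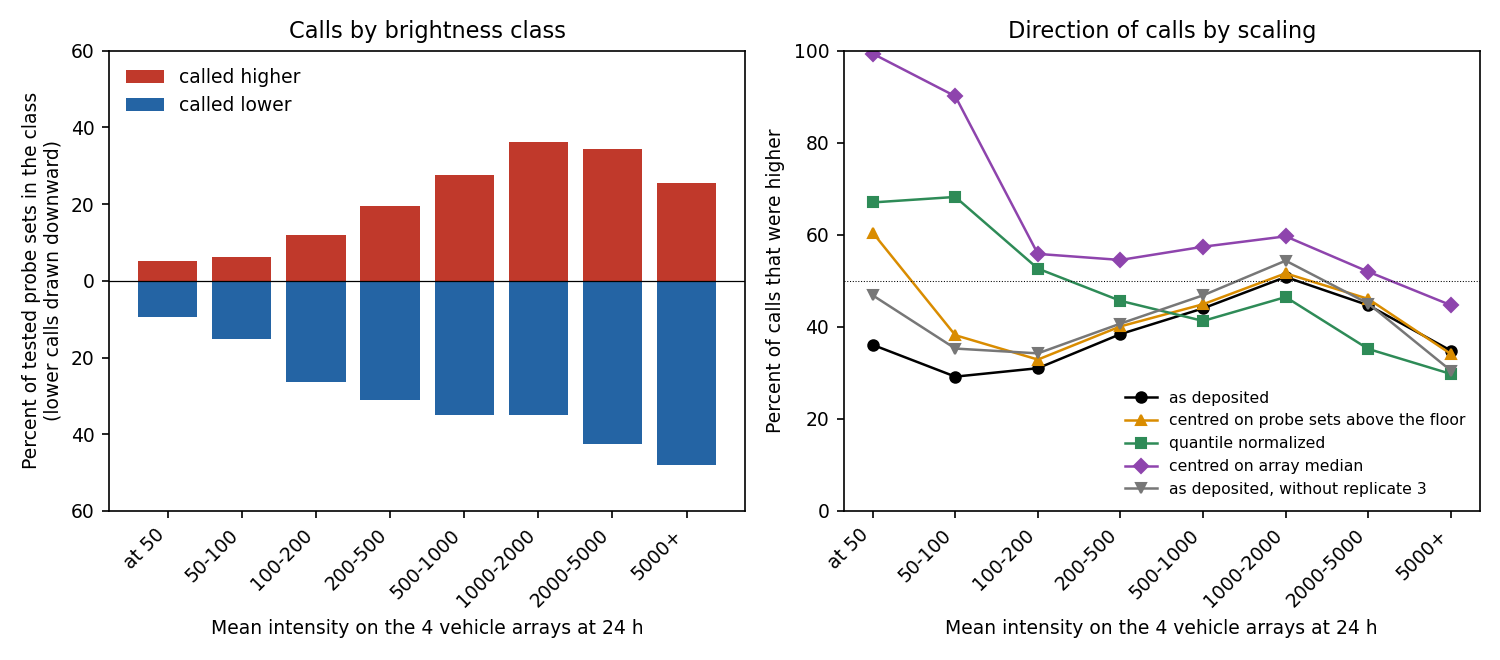
Left, the percent of tested probe sets in each brightness class called higher (up) and lower (down) under CP-868388 at 5 days; right, the percent of calls that were higher, by scaling. Classes are from the 4 vehicle arrays at 24 h; the share called grows with brightness, while the direction in the dim classes moves from 29.2% higher as deposited to 68.2% after quantile normalization between 50 and 100.

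The response moved a large part of the summed intensity. The probe sets called higher held 22.6 ± 1.41% (SD, n = 4) of it under vehicle and 39.9 ± 1.96% under the compound. Those called lower went from 35.8 ± 1.63% to 20.4 ± 1.33%. These shares describe probe sets picked by the same contrast and carry no test. The gain was spread over many features: the 10 probe sets with the largest gains held 10.4% of the summed gain, and the 100 with the largest gains held 50.5%.

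Another choice of probe sets came from the 24 h arrays, none of which is in the 5-day comparison. There, 354 probe sets were called higher under all 3 agonists and 672 were called lower. The 354 held 19.7, 19.2, 20.7 and 18.9% of the summed intensity in the livers given CP-868388 for 5 days, and 8.68, 9.35, 9.98 and 8.91% in those given vehicle. The 672 held 7.24, 7.61, 7.12 and 8.15% against 14.0 to 16.1%. Neither share overlapped between the groups. At 5 days 340 of the 354 (96.0%) were called higher in limma, against 14% of all tested probe sets. Of the 672, 478 (71.1%) were called lower, against 23.8%. Calls at 24 h and 5 days used standard errors from the same fit, so probe sets with a small standard error were favoured in both. These percentages of calls are therefore not independent of the choice.

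Fewer probe sets lay above the floor under CP-868388. The compound arrays had 6166, 6085, 5678 and 6118 of 12422 non-control probe sets above it, and the vehicle arrays 6452, 6701, 6442 and 6704. Every compound array was below every vehicle array, and replicate 3 was the lowest. The means were 6012 ± 225 and 6575 ± 148 (SD, n = 4 each), a difference of -563 (exact two-sided permutation p = 0.0286, the smallest that 4 against 4 allow). Without replicate 3 the compound mean was 6123 ± 40.7 and the difference -452 (exact permutation p = 0.0571, the smallest that 3 against 4 allow).

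Few probe sets passed fully from one side of the floor to the other. Of 4794 at the floor on all 4 vehicle arrays, 44 (0.918%) were above it on all 4 compound arrays and are termed switched on. Of 5573 above the floor on all vehicle arrays, 81 (1.45%) were at it on all compound arrays and are termed pushed to the floor. Most of both were dim. The switched-on probe sets had a median compound intensity of 93.5 and 26 of 44 were under 100, while those pushed to the floor had a median vehicle intensity of 68.8 and 69 of 81 were under 100. In limma 37 of the 44 and 70 of the 81 were called, beside 37.8% of all tested probe sets. Of them 8 and 4 changed at least 2-fold, beside 2.65% higher and 2.34% lower of all tested, on a scale that shrinks dim changes. The definition itself separates the groups, so these counts are a description.

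The brightest switched-on probe set was 103944_AT. It read 1468, 1330, 1411 and 879 under the compound and 50 on every vehicle array. The rise was at least 25.4-fold on the means against the floor (log2 change 3.70 ± 0.14, SE, limma adjusted p = 4.41e-17). It was also at 50 on all vehicle arrays at 24 h, and read 822, 823, 1039 and 894 under CP-868388 at that time.

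The brightest probe set pushed to the floor was 94795_AT. It read 50 on every compound array and 1996, 2194, 1320 and 1551 under vehicle, at least 35.3-fold lower (log2 change -4.15 ± 0.22, SE, limma adjusted p = 6.87e-14). At 24 h it was lower but still above the floor, with 464, 670, 884 and 385 under CP-868388 against 2100, 2258, 2355 and 3133 under vehicle.

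The count of falls depended in part on replicate 3 of CP-868388, while the large changes depended on it little. Over the 354 probe sets raised at 24 h this array had a mean log2 difference from vehicle of 1.14, against 0.99 to 1.08 for the other compound arrays. Over the 672 lowered at 24 h it had -0.71, against -0.56 to -0.66. In the 100 to 200 class its median difference from the vehicle mean was -0.24 on the log2 scale, against -0.10 to -0.13 for the other compound arrays. It alone was at the floor for 268 probe sets, against 108 to 137 for each of the other compound arrays. Vehicle replicate 3 also had many such probe sets, 237 against 106 to 194. Without compound replicate 3, 2467 probe sets were called (1005 higher, 1462 lower): 450 of the lower calls (23.8%) and 140 of the higher calls (12.6%) were lost. Leaving out any other array lost 8.08 to 18.6% of the lower calls. Replicate 4 of CP-868388 differed more from the rest of its group than replicate 3 did (SD of the log2 difference 0.27 against 0.22). Without replicate 4, 240 rises and 234 falls were at least 2-fold, against 211 and 186 with all arrays. The lower calls lost without replicate 3 had a median change of 0.36 in size, and no call changed sign. None of the calls of at least 2-fold was lost, though 207 rises and 171 falls were then of that size, against 211 and 186. With both replicate 3 arrays left out, 2556 were called (981 higher, 1575 lower).

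**Figure D3:**
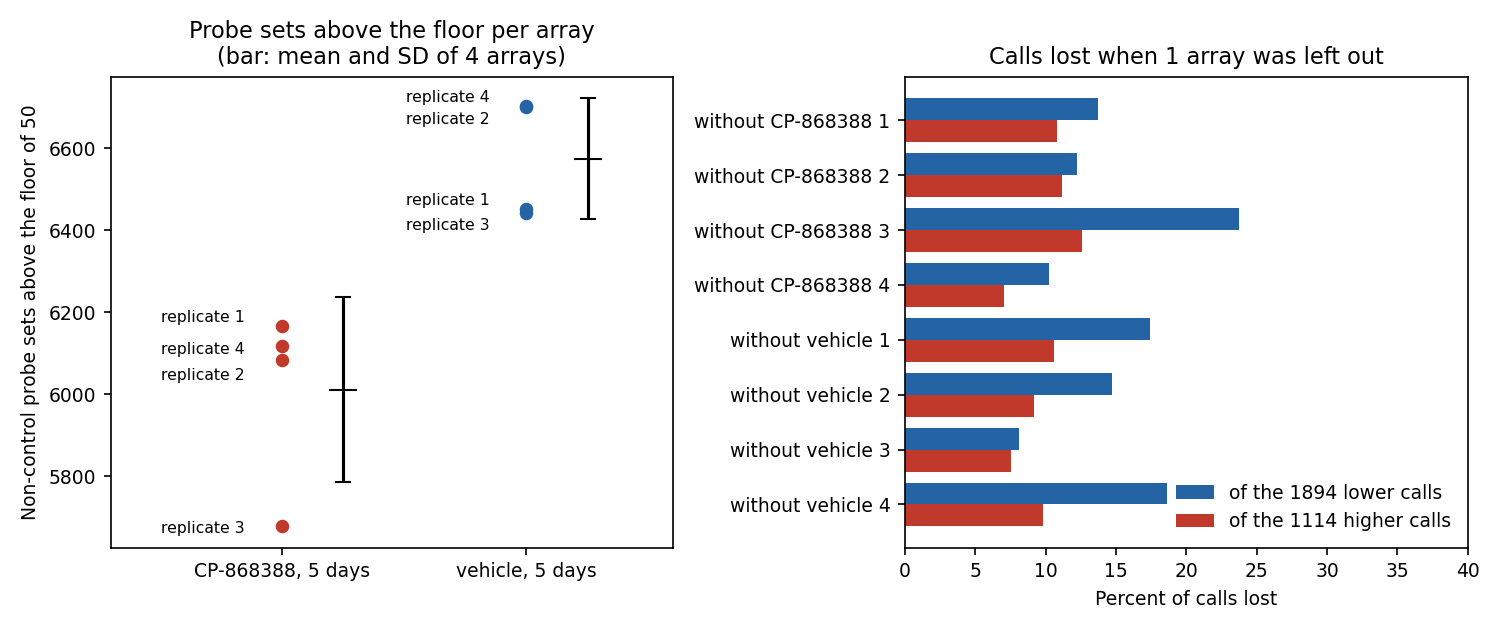
Left, non-control probe sets above the floor on each 5-day array, with the mean and SD of each group of 4; right, the percent of lower (blue) and higher (red) calls lost when 1 array was left out. CP-868388 replicate 3 lies lowest at 5678, and leaving it out lost 23.8% of the lower calls.

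**Figure D4:**
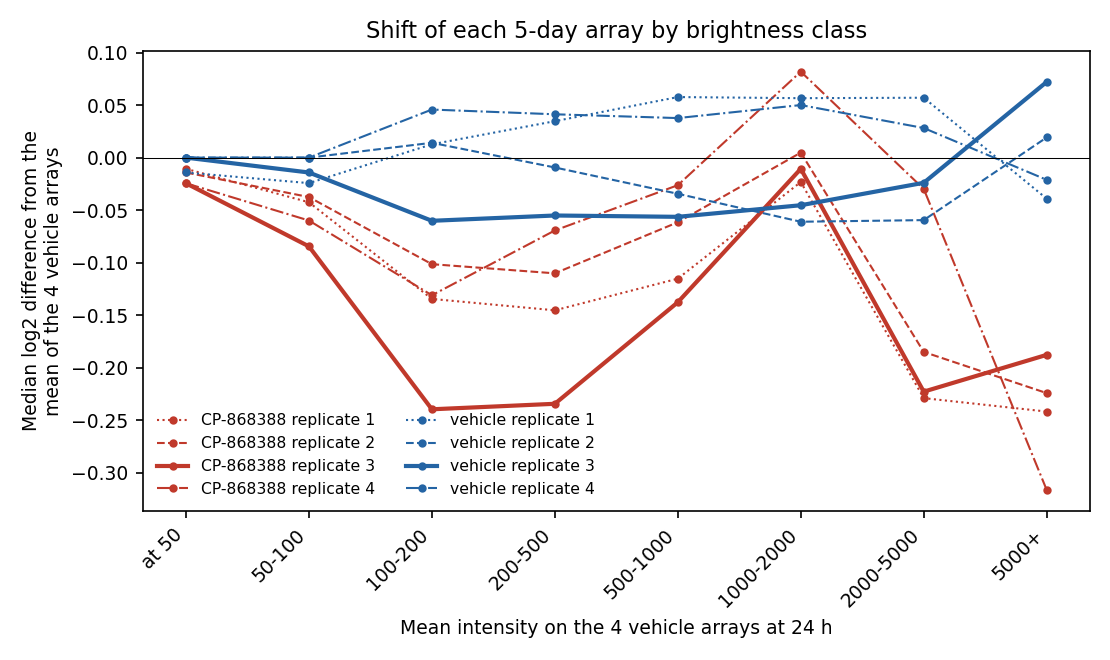
Median log2 difference of each 5-day array from the mean of the 4 vehicle arrays, by brightness class on the 24 h vehicle arrays. CP-868388 replicate 3 (thick red) lies at -0.24 between 100 and 200, below the other compound arrays at -0.10 to -0.13, and lies within their range between 1000 and 5000.

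Leaving out an array can only raise the count of probe sets pushed to the floor, because all arrays must meet its definition. Against 81 with all arrays, it was 91 without compound replicate 3, 116 without replicate 1, 148 without replicate 4, 142 without vehicle replicate 3 and 154 without both replicate 3 arrays. Requiring 3 of 4 arrays in place of all gave 487 pushed to the floor and 143 switched on.

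Among the control probe sets named for mouse genes, those for Gapdh, beta-actin and 18S ribosomal RNA fell, MURFAS rose, and those for pyruvate carboxylase and the transferrin receptor were not called. The 3′ set for Gapdh, a glycolytic enzyme, read 3030, 3175, 2424 and 4868 under the compound and 6438, 5369, 4738 and 6197 under vehicle, a fall by 0.78 ± 0.17 (limma adjusted p = 0.000855), with 1 compound array inside the vehicle range. The 3′ set for beta-actin read 3787, 4237, 2957 and 6005 against 7324, 6141, 5518 and 6592, a log2 change of -0.62 ± 0.19 (limma adjusted p = 0.00956). Its call was lost without compound replicate 3 (-0.47, limma adjusted p = 0.0596). It was also lost with only the compared groups fitted (-0.62, limma adjusted p = 0.0612). Over all alternatives the limma adjusted p ran from 0.00104 to 0.0612. The 3′ set for pyruvate carboxylase, a gluconeogenic enzyme, changed by 0.12 (limma adjusted p = 0.460). That for the transferrin receptor, which brings iron into cells, read 55, 71, 56 and 50 under the compound and 50, 60, 50 and 54 under vehicle. These values lie at or near the floor, so a fall could hardly be seen. It changed by 0.06 (limma adjusted p = 0.623), and after median centring by 0.21 (limma adjusted p = 0.0213). Median centring adds the same amount to every change, also to those near the floor. MURFAS read 164, 182, 176 and 112 under the compound and 50, 81, 82 and 84 under vehicle, with no overlap, a rise of 0.74 ± 0.13 (limma adjusted p = 7.12e-05).

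The 3′ set for 18S ribosomal RNA read 764, 700, 411 and 1073 under CP-868388 and 1676, 1828, 1919 and 1660 under vehicle (log2 change -1.28 ± 0.32, limma adjusted p = 0.0024). The compound arrays were all lower than the vehicle arrays. The vehicle arrays at 24 h read 433, 452, 357 and 261, all below the vehicle arrays at 5 days. The 5′ over 3′ log2 ratio for pyruvate carboxylase, a measure of RNA integrity and labelling, was -1.74, -1.70, -1.95 and -1.65 under the compound and -1.49, -1.27, -1.57 and -1.26 under vehicle. It was lower on every compound array. The other ratios did not move alike: that for Gapdh was 0.09, 0.18, 0.31 and 0.02 under the compound against 0.06, -0.02, 0.01 and 0.06, and that for beta-actin -0.98, -0.80, -1.06 and -1.07 against -0.61, -0.89, -0.99 and -0.70, both with overlap. Their part in the changes was not tested beyond a fit that took integrity as a covariate, which called 3061 probe sets. The covariate was the mean of the ratios for Gapdh, beta-actin and pyruvate carboxylase, each scaled over all arrays. Since these did not move alike, the fit cannot settle the part of any single ratio.

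The 5-day response shared most of its calls with that of CP-868388 at 24 h, where 3234 probe sets (40.6%) were called. Of the 1114 called higher at 5 days, 767 (68.9%) were called higher at 24 h and 11 lower. Of the 1894 called lower, 1256 (66.3%) were called lower at 24 h and 5 higher. Among the 4955 not called at 5 days, 216 (4.36%) were called higher at 24 h and 979 (19.8%) lower. Calls at both times used standard errors from the same fit. Across the 7963 probe sets, which are not independent replicates, the changes at both times had a Pearson r of 0.811 and a Spearman rho of 0.712, and in the 2862 with an intensity of at least 200 on the 24 h vehicle arrays 0.864 and 0.842.

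**Figure D5:**
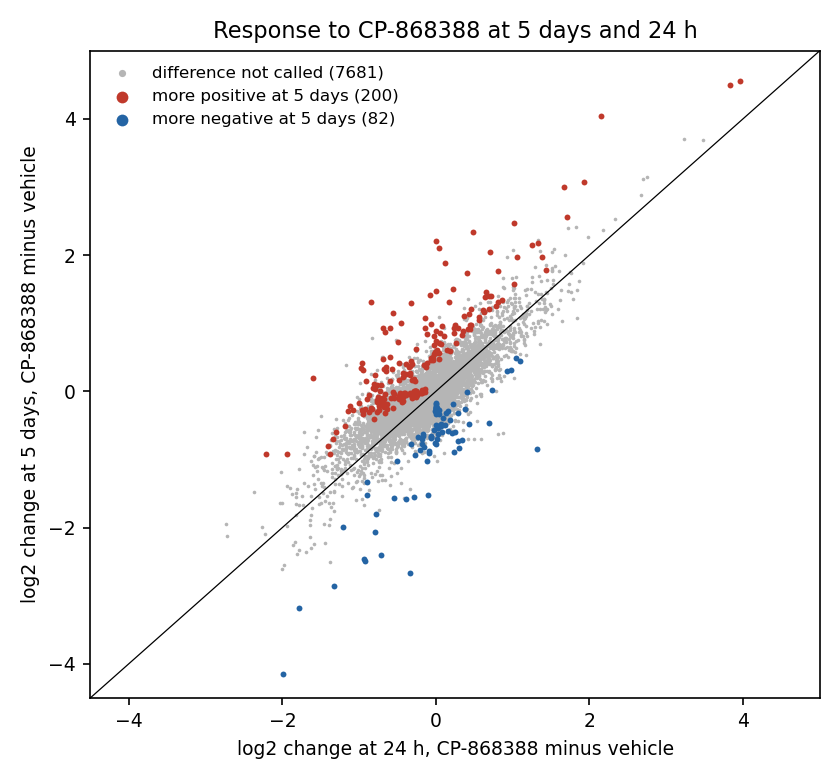
Log2 change under CP-868388 at 24 h against that at 5 days for each tested probe set, each time against its own vehicle arrays. Points follow the diagonal (Pearson r 0.811), and 282 probe sets were called in the test of the difference.

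The difference between the times was called for 282 probe sets (3.54%) in limma. Of these, 200 had a more positive change at 5 days, including 81 that were called lower at 24 h and not called at 5 days, and 82 a more negative one, including 51 that were called lower at 5 days alone. For 97316_AT the rise was greater at 5 days by 0.58 (limma adjusted p = 0.0408), for 99083_AT the fall was deeper (-1.41, limma adjusted p = 0.00263), and for 94795_AT too (-2.16, limma adjusted p = 0.00015). For 103944_AT the difference of 0.47 was not called (limma adjusted p = 0.192). The log2 5′ to 3′ ratio for Gapdh was -0.55, -0.19, -0.55 and -0.13 under CP-868388 at 24 h and 0.09, 0.18, 0.31 and 0.02 at 5 days. That for pyruvate carboxylase was -2.89, -2.39, -3.72 and -2.02 under CP-868388 at 24 h, against -1.56 to -1.21 under vehicle at 24 h. At 5 days it was -1.95 to -1.65 under CP-868388. With integrity as a covariate 99 probe sets were called for the difference, 57 more positive and 42 more negative. Only 80 of the 282 were among them. Without replicate 1 of CP-868388 at 24 h 184 were called.

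CP-868388 was also set against the other agonists at the same dose and time, in 2 pairs. Against CP-775146, which had 2 arrays, 6 probe sets (0.0753%) were called in limma, 1 higher and 5 lower under CP-868388, and 618 had an unadjusted p under 0.05. For 97.0% of the 7963, both ends of the 95% interval of the difference were under 2-fold, with the spread taken from all 8 groups. Over probe sets above the floor on every array, CP-775146 at 5 days had the highest upper-decile SD, 0.47 against 0.25 to 0.36 elsewhere. Its median SD of 0.18 lay within the range of the other groups. The count was 201 without CP-775146 replicate 1 and 12 without its replicate 2; each of these fits leaves that compound 1 array, which is assumed to vary like the other groups. Against CP-865520, 5 probe sets (0.0628%) were called, 2 higher and 3 lower, 615 had an unadjusted p under 0.05, and both interval ends were under 2-fold for 98.8%. Those 5 were named after their values were seen, and each differed by less than 2-fold between these agonists. The differences were 0.57 for 98590_AT, -0.45 for 93084_AT, -0.38 for 94302_AT, -0.26 for 92246_AT and 0.15 for 94644_AT. The last of these lay at or near the floor: 92246_AT had means of 50.25 under CP-868388 and 70.5 under CP-865520, and 94644_AT 60.75 and 50.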

How the data were processed

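The authors deposited 1 intensity per probe set and array on a linear scale; MAS5 is named in the submitters' processing notes, with no version. How the arrays were scaled and how the floor was set is not given in the sources used here. Deposited intensities were whole numbers from 50 to 29064, 50.29% of them at 50, with array means of 314.1 to 318.2. Of 12488 probe sets, 66 controls, 3953 never above the floor and 506 above it on 1 array only were left out, and 7963 were tested. The controls were tested in the same model. limma 3.58.1 in R 4.3.3 (lmFit, eBayes with trend) was fitted to log2(intensity + 50) over all 30 arrays in 8 groups, two-sided, with Benjamini-Hochberg adjustment, and was tested on simulated data. The number of arrays limits the precision.

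Named probe sets were the largest rise and fall among called, non-overlapping probe sets that no one of the 8 arrays had at the floor, and the brightest switched on and pushed to the floor. Members and lists were chosen with earlier results of these data known. Gene lists and cell type markers were not applied because no probe set could be paired with a gene. Brightness classes used 3 references, tried in this order: all 22 other arrays, the 24 h vehicle arrays, and the midpoint of vehicle and CP-868388 at 24 h. The second was adopted after the result of the first had been seen, and all 3 are reported.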

Additional observations from a re-analysis of the deposited data

Results flagged for a closer look

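In 34 combinations of a measure and a group of 4 arrays, many of them on the same arrays, 3 had an array far from the others, which chance gives in about 1 in 20. CP-868388 replicate 3 had 5678 probe sets above the floor, with a gap of 0.834 of the range of its group, just past the critical value. That array had been singled out by this same count before the check, so its flag is a description and not a test. Vehicle replicate 2 had 110 probe sets over 5000 where each of the other vehicle arrays had 114. The control probe set MURFAS lay at 50 on vehicle replicate 1 and at 81, 82 and 84 on the others. The response of CP-868388 differed between 5 days and 24 h in limma for 282 probe sets, for 97316_AT by 0.58, for 99083_AT by -1.41, for 94795_AT by -2.16 and for the 5′ control set of 18S ribosomal RNA by -1.57.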

How the results depend on the processing

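The count of probe sets called for CP-868388 against vehicle at 5 days lay between 2349 and 3390 in the 21 alternatives run, all within 1.5 times of 3008; with a replicate block it was 2945. Same-numbered arrays correlated by -0.17, 0.04, 0.34 and 0.24 in their deviations, and differently numbered ones by -0.41 to 0.33. The labels do not say what the numbers mark, so they were not taken to pair the mice. The share of higher calls between 2000 and 5000 was 44.7% with classes from the 24 h vehicle arrays, 65.6% with the 22 arrays outside the comparison and 56.7% with the midpoint; both of the latter hold agonist-treated arrays, and the cause was not tested. Switched-on probe sets were 143 with 3 of 4 arrays. Those pushed to the floor were 487 with 3 of 4 arrays, 129 at a level of 80, 154 without both replicate 3 arrays, and 91 to 148 with 1 array left out, which can only raise this count. The difference between times was called for 99 probe sets with integrity as a covariate and for 184 to 365 with 1 array left out. Against CP-775146 the count was 3 with a stricter filter, 15 with quantile normalization, 11 with centring above the floor and 5 to 201 with 1 array left out. Against CP-865520 it was 0 with a stricter filter, median centring, centring above the floor or the compared groups alone (519 to 630 at an unadjusted p under 0.05 in limma), 1 with a replicate block, 3 with integrity, 8 with a floor of 100 and 0 to 7 with 1 array left out. The floor hides changes below 50.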
